A study of Mus musculus with 24 samples.

Results

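Broad H3K4me3 domains were long stretches of a promoter mark, histone H3 trimethylated at lysine 4, found in both of 2 mouse melanoma cell lines by CUT&RUN, in which an antibody guides a nuclease that cuts out the chromatin around its target. A domain was built from deposited H3K4me3 peaks of at least 3000 bp, in either line, that overlapped a peak of the other line by at least 1 bp, with overlapping peaks merged. This gave 1627 domains, against 12540 H3K4me3 regions of any width found in both lines. Line 493 is labelled Kmt2d mutant and is set against line 971, labelled Kmt2d WT. The sources used here do not give the kind of mutation or any other allele. Culture was the same for both, in serum-containing DMEM/F12 medium with penicillin and streptomycin. Of 24 samples, 22 had a peak list, 12 from the mutant line and 10 from the WT line, and these lists held 197727 peaks. Rabbit IgG samples of both lines make up the remaining 2 and were not analysed here.

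With a single library for every target in a line, there was no spread between replicates and nothing was tested. Genotype and line cannot be told apart, because 1 line stands for each genotype. Intervals of shares are 95% Wilson intervals, those of median ratios are 95% order-statistic intervals over regions of the same libraries, and neither covers the spread between samples. The domains were chosen by their H3K4me3 peak widths, so widths and the genes under them are given as a description. The depth at which the peaks were called, rebuilt from the deposited fold enrichment and −log10 p, was 1.86 times as high in the mutant as in the WT H3K4me3 list. The same ratio was 1.86 for Menin, 1.81 for TFAP2A, 1.85 for ARID1A and 1.59 for UTX, and 0.392 for SMARCC1. Of 9 melanocyte markers, 4 had an H3K4me3 peak within 1 kb of a gene end in the mutant line and 3 in the WT line. Mitf, Pax3 and Pmel had one in both lines, Sox10 in the mutant line only, and Tyr, Tyrp1, Dct, Mlana and Kit in neither. The corresponding counts were 4 and 4 of 10 for fibroblast markers, 2 and 2 of 8 for keratinocyte markers, 1 and 0 of 8 for blood cell markers and 1 and 1 of 6 for endothelial markers, with the mutant line given before the WT line.

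H3K4me3 is laid down at active promoters by COMPASS methyltransferase complexes. Complexes built on KMT2A and KMT2B contain Menin, while those built on KMT2D contain the histone demethylase UTX and act mainly at enhancers. At most active genes the mark forms a short peak over the start. Long domains are known in many cell types to lie over genes of cell identity, growth control and high output. They commonly run over unmethylated, CpG-rich DNA and into the gene body.

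The DNA at 4 gene starts that lie in domains is shown first, because these starts are mapped list by list further on. Each stretch runs from 250 bases before to 50 bases after an annotated start (RefSeq, GRCm38.p6, the assembly of mm10), with every CpG in capitals. Hmga2 encodes an architectural chromatin protein and its stretch is chr10:120476420-120476719 on the minus strand. Sox2 encodes a stem and neural progenitor transcription factor (chr3:34649745-34650044, plus strand). Dusp6 encodes a phosphatase that shuts off ERK (chr10:99262981-99263280, plus strand), and Foxd3 encodes a neural crest transcription factor (chr4:99656049-99656348, plus strand).
Hmga2: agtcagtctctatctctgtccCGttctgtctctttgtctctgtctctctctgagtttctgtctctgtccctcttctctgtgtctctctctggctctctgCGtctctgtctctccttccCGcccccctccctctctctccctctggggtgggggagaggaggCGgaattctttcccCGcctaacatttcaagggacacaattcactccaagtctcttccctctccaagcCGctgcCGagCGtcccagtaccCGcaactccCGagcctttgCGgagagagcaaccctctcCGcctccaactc
Sox2: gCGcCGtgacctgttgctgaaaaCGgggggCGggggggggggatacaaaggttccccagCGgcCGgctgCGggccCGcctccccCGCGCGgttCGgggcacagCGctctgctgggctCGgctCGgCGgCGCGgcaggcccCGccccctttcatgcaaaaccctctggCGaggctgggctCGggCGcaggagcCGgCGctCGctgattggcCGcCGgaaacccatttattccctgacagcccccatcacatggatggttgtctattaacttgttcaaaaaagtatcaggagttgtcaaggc
Dusp6: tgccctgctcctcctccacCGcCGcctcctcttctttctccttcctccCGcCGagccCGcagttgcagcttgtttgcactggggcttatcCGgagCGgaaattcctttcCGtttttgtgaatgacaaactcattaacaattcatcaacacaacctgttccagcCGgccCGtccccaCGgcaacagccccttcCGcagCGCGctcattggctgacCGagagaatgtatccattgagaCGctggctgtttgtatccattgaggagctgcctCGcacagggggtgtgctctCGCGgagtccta
Foxd3: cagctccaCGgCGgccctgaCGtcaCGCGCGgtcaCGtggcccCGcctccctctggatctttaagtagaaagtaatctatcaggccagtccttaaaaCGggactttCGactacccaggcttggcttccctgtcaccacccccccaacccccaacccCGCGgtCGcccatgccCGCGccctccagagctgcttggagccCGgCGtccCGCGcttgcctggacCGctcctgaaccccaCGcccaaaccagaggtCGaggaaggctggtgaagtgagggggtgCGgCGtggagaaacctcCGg

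CpG density differed among the 4 starts. The Hmga2 stretch held 12 CpGs, the Dusp6 stretch 19, the Foxd3 stretch 25 and the Sox2 stretch 27. The 1728 annotated coding starts inside a domain had a median of 26 CpGs per 300 bases (interquartile range 18 to 33), against 22 (16 to 29) for 8135 starts in other shared H3K4me3 regions and 4 (2 to 9) for 10673 starts without H3K4me3 in either line. The ratio of observed to expected CpG was above 0.6 in 84.1%, 81.0% and 15.2% of these 3 classes. Several starts of 1 gene can lie in 1 domain, so the starts were not independent.

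Short motifs were counted in the same classes. TATAAA, searched on both strands, was in 6.31% of starts in domains (5.26–7.55%), in 5.54% of starts in other shared regions, in 19.4% of starts without H3K4me3 and in 12.6% of all 21263 promoters of coding genes. GGGCGG, the letters of the GC box, was in 71.7% (69.5–73.8%), 69.4%, 23.2% and 46.2% of the same classes. CCAAT was in 39.2% (37.0–41.6%), 38.8%, 37.8% and 38.2%, so its share was close to that of all promoters in each class. TGACGTCA, the letters bound by CREB and ATF factors, was in 2.37% (1.75–3.20%), 3.76%, 1.05% and 2.23%. TGANTCA, the AP-1 letters, was in 3.70% (2.91–4.70%), 4.04%, 9.78% and 6.99%, and GCCNNNGGC, letters bound by TFAP2, was in 29.5% (27.4–31.6%), 26.0%, 13.2% and 19.9%. The last motif can overlap GGGCGG on GC-rich DNA.

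Outside coding genes, domains often lay near microRNA genes. Of 1627 domains, 27 had only a noncoding gene end within 1 kb and 18 had no annotated gene. Of these 45 domains, 17 had a microRNA hairpin within 30 kb (37.8%, 25.1–52.4%), against 77 of 939 other shared regions outside coding genes (8.20%, 6.61–10.1%) and 9.55% of all such shared regions. The 17 domains belonged to 14 hairpin loci and the 77 other regions to 61. With a window of 10 kb the counts were 8 domains (17.8%, 9.29–31.3%) and 44 other regions (4.69%, 3.51–6.23%), and with 100 kb they were 25 (55.6%) and 175 (18.6%). The windows were chosen after values were seen, and a wider region reaches a little farther. Over all domains, 20 held a hairpin inside (1.23%, 0.797–1.89%), against 71 other shared regions (0.651%, 0.516–0.820%).

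The mature sequences of these hairpins are shown with the seed, bases 2 to 8, in capitals, because 5 of the microRNAs share 1 seed although 3 separate sets of domains lay beside them. The let-7 seed, GAGGUAG, was shared by let-7a, let-7b, let-7c, let-7d and let-7f. Members of this family are known to repress Hmga2 and other growth genes.
let-7a-5p: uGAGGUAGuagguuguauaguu
let-7b-5p: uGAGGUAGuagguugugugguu
let-7c-5p: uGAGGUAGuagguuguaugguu
let-7d-5p: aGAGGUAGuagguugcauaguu
let-7f-5p: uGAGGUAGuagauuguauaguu
Other shared seeds were those of miR-221 and miR-222, and of miR-29a and miR-29b, each pair encoded next to the other.
miR-221-3p: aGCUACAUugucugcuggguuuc
miR-222-3p: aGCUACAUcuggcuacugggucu
miR-29a-3p: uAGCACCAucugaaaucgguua
miR-29b-3p: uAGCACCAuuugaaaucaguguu
The remaining microRNAs shown had seeds of their own.
miR-125b-5p: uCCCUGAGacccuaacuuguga
miR-99a-5p: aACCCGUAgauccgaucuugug
miR-9-5p: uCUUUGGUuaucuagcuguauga
miR-31-5p: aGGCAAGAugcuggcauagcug
miR-22-3p: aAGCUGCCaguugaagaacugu
miR-16-5p: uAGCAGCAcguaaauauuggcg
miR-193a-3p: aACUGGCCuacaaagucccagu
miR-23a-3p: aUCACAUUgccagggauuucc
miR-27a-3p: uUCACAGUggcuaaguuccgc
miR-24-3p: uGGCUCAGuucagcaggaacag

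One let-7 domain had the highest mean width of the domains outside coding genes. The domain that ended 24009 bp before let-7c-2 and let-7b (chr15:85670918-85682594) had its longest H3K4me3 peak at 11587 bp in the mutant line and 5684 bp in the WT line, where it was split into 2 peaks that covered 10971 bp. A neighbouring domain 20000 bp from the same hairpins measured 3742 bp in the mutant line and 3483 bp in the WT line. The domain 4429 bp from let-7a-1, beside let-7d and let-7f-1, measured 1536 bp in the mutant line and 3057 bp in the WT line. A domain 709 bp from miR-99a and next to let-7c-1 measured 3683 bp in the mutant line and 4627 bp in the WT line. Menin lay in both lines on all of these but the let-7a-1 domain, which had Menin in the mutant line only.

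Other microRNA domains differed in how evenly the lines were marked. The domain 12757 bp from miR-222 and miR-221 (chrX:19159728-19167961) had a longest peak of 3036 bp in the mutant line, in 4 peaks that covered 5276 bp, and of 8178 bp in the WT line, in 1 peak. It carried KMT2D, ARID2 and UTX in the WT line and no other target in the mutant line. The domain over miR-125b-1 (chr9:41579176-41587825) measured 5537 bp in the mutant line and 6511 bp in the WT line. The domain 21423 bp from miR-31 measured 6078 bp in the mutant line and 6068 bp in the WT line, with Menin and ARID2 in both lines. The larger of 2 domains near miR-9-2 measured 5056 bp in the mutant line and 5117 bp in the WT line. The domain over miR-22 measured 3678 bp in the mutant line and 2416 bp in the WT line and was called in 13 of 22 lists. Across the 17 domains, widths ran from 1536 to 11587 bp in the mutant line and from 2416 to 8178 bp in the WT line. Menin was present on 13 of them in the mutant line and 12 in the WT line, and KMT2D on 6 in the WT line. Over all 1627 domains the shares were 95.1% and 90.1% for Menin and 36.4% for KMT2D.

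Median widths of the domains were much the same in the 2 lines, while single domains varied. The longest H3K4me3 peak of a domain had a median of 3393 bp in the mutant line (interquartile range 2994.5 to 4043.5 bp) and 3340 bp in the WT line (3013 to 3971 bp), and the maxima were 14872 and 11067 bp. The median mutant over WT ratio was 0.997 (0.982–1.01), against 1.03 in the 10914 other shared regions and 1.02 in all shared regions. Its interquartile range over the domains was 0.850 to 1.22, and a domain could enter by its width in either line. Of the 1627 domains, 825 reached 3000 bp in both lines, 389 in the mutant line only and 413 in the WT line only. In all, 1226 of 16438 mutant peaks (7.46%) and 1249 of 14666 WT peaks (8.52%) reached 3000 bp, and 9 mutant and 6 WT peaks of that width overlapped no peak of the other line. One shared region held 2 domains, so domains and other regions sum to 1 more than all shared regions.

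Some domains were long in 1 line only. The mutant peak was at least 1.5 times as long in 223 domains (13.7%), against 14.4% of all shared regions. The WT peak was at least 1.5 times as long in 147 domains (9.04%), against 7.42% of all shared regions. By the longest peak, both shares lay near those of all shared regions. Peak callers cut a domain where the signal dips. In the mutant line 217 domains were cut into more than 1 peak, against 532 of all 12540 shared regions. In the WT line 316 domains were, against 850. By bases covered inside the domain in place of the longest peak, 92 domains were at least 1.5 times as long in the mutant line, against 1424 of all shared regions. The WT line was the longer by this measure in 87 domains, against 744. The mutant-longer share by covered bases was thus lower in domains than in all shared regions. Spearman's rank correlation of the widths in the 2 lines was 0.303 over the 1627 domains, 0.606 over the 825 broad in both lines and 0.834 over all 12540 shared regions. The regions share depth within each list, and the rule limits the widths that domains can take.

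**Figure D1:**
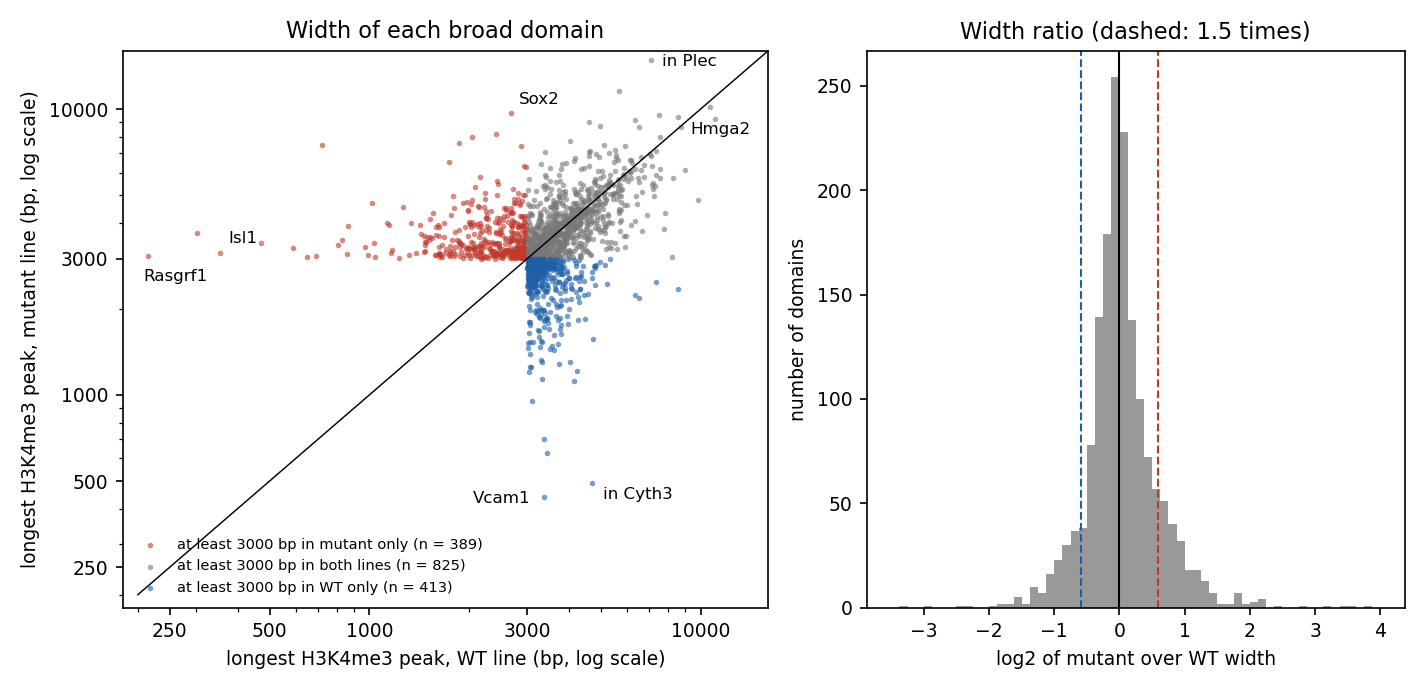
Width of each of the 1627 domains as the longest H3K4me3 peak in the mutant line (vertical axis, bp, log scale) and in the WT line (horizontal axis, bp, log scale), and the log2 ratio of mutant over WT width. Points are coloured by the line or lines in which the peak reached 3000 bp, and the diagonal marks equal width. In the ratio panel dashed lines mark 1.5 times and the solid line the median. The median ratio is 0.997, and no domain lies under 3000 bp in both lines because of the rule.

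Around the threshold the choice was arbitrary. Just inside lay the domains at Stradb and Trak2 (2397 bp in the mutant line and 3001 bp in the WT line), Ssbp1 (3001 and 2178 bp) and Mamld1 (3001 and 2393 bp). Just outside lay the regions at Herpud2 (2498 bp in the mutant line and 2996 bp in the WT line), inside Zfx (2996 and 1801 bp) and at Brd8 and Kif20a (2765 bp in the mutant line). The Sox10 peak of the mutant line, at 2978 bp, also fell just short, and the WT line had none there.

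The domains lay at genes and mostly over starts. A protein-coding gene end lay within 1 kb of 1372 domains (84.3%, 82.5–86.0%), against 76.2% of other shared regions (75.4–77.0%) and 77.3% of all shared regions. A further 210 domains lay inside a coding gene, away from its annotated ends. Since genes were taken from extents without strand, an inner start counts here as inside. An annotated coding start was inside 73.5% of domains (71.3–75.6%) and 60.5% of other regions (59.6–61.4%). Ends of 2 or more coding genes lay at 22% of domains (20.1–24.1%) and 13.1% of other regions (12.5–13.7%). A wider region reaches more ends, so these shares rise with width by construction. Chromosome X had 6.13 domains per 100 shared regions, the lowest of the numbered chromosomes and X, and chromosome 12 had 18.1, the highest.

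The mark reached into the gene body. Of the 818 domains with exactly 1 annotated coding start, the median extent was 2834 bp downstream of the start (interquartile range 2283 to 3398 bp) and 908 bp upstream (528 to 1353 bp). The 5375 other regions with 1 start ran 1208 bp downstream and 425 bp upstream. The downstream arm was the longer in 91.7% of domains (89.6–93.4%) and 90.9% of other regions (90.1–91.6%), so the direction was common to both. The H3K4me3 summit lay a median of 658.5 bp downstream of the start in the mutant line and 835.5 bp in the WT line in domains, against 305 and 387 bp in other regions.

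Menin ran along the domain with the mark. At 2000 bp downstream of the start, a Menin peak covered 44.6% of domains in the mutant line and 37.4% in the WT line, against 5.53% and 4.48% of other regions. H3K4me3 itself covered 77.0% of domains there in the mutant line and 79.3% in the WT line, against 7.07% and 8.60% of other regions. Since other regions ran a median of only 1208 bp downstream, the width rule sets much of this contrast by construction. TFAP2A, TFAP2B, ARID1A, UTX, KMT2D and SOX10 U were highest at the start itself, where mutant TFAP2A covered 59.0% of domains. At 2000 bp mutant TFAP2A covered 4.28%, mutant ARID1A 2.08% and WT KMT2D 0.733%. The mutant Menin profile was 56.7% at the start, 46.6% at 500 bp downstream and 58.2% at 1000 bp. WT Menin was 49.5%, 33.5% and 46.8% at the same points, so it too was highest at the start. At the start, H3K4me3 covered 98.4% of domains in the mutant line and 87.4% in the WT line.

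**Figure D2:**
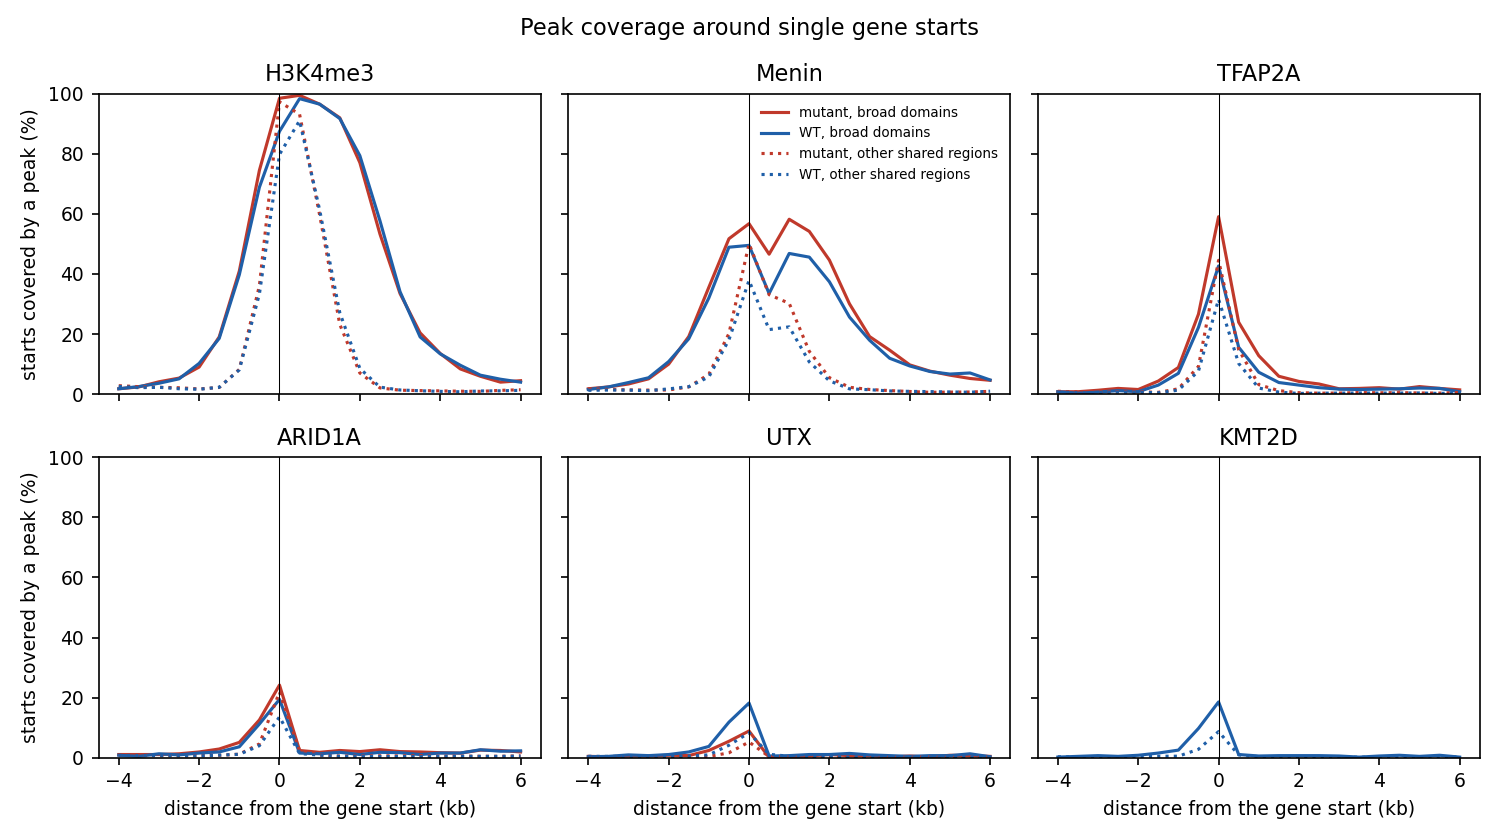
Share of gene starts covered by a peak of each target (vertical axis, %) at steps of 500 bp from the start (horizontal axis, kb, downstream positive). Red lines are the mutant line and blue lines the WT line; solid lines are the 818 domains and dotted lines the 5375 other shared regions with exactly 1 annotated coding start. H3K4me3 and Menin stay high for 2000 bp into the gene in domains, while TFAP2A, ARID1A, UTX and KMT2D form a narrow peak at the start.

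The widest domains lay over genes of several kinds. Inside Plec, which encodes the cytoskeletal linker plectin, the longest peak measured 14872 bp in the mutant line and 7103 bp in the WT line, where 3 peaks covered 13264 bp (chr15:76193030-76207901). At Pcdh7, a protocadherin gene, it measured 9250 bp in the mutant line and 11067 bp in the WT line. At Hmga2 it measured 9381 bp in the mutant line and 8539 bp in the WT line. At Tgif1, which encodes a homeodomain corepressor of TGF-beta signalling, the peaks were nearly equal, 8675 bp in the mutant line and 8708 bp in the WT line. At Rgmb, which encodes a BMP co-receptor, 9174 bp in the mutant line stood against 6345 bp in the WT line, where 2 peaks covered 9089 bp.

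Aopep, an aminopeptidase gene, held 2 of the 15 widest domains, 10133 bp in the mutant line and 10654 bp in the WT line for 1 and 9505 bp and 7504 bp for the other. The first of these ended 17686 bp from the hairpins of miR-23b, miR-27b and miR-24-1, which lie in the same stretch. The other 7 of the 15 lay at Zfp608, Zfp516, Tsc22d2, Fign and Trim8, inside Iffo2, and in a stretch of chromosome 8 with no annotated gene (5739 bp in the mutant line and 8258 bp in the WT line), called in 16 lists; the let-7 domain on chromosome 15 is the last of the set. Fign, which encodes a microtubule-severing ATPase, was cut into 4 mutant peaks, the longest of 4818 bp, against 1 WT peak of 9852 bp. None of the 15 was called in fewer than 6 of the 22 lists.

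**Figure D3:**
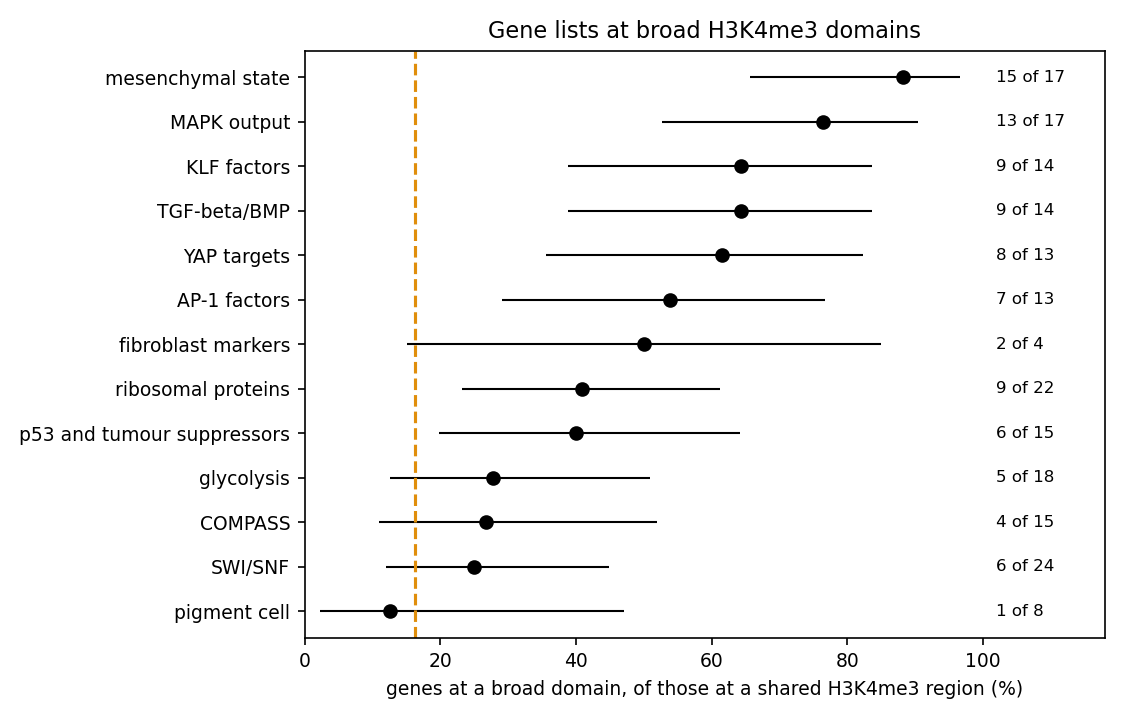
Share of the genes of each list at a broad domain, of those with a gene end at an H3K4me3 region shared by the lines (horizontal axis, %), with 95% Wilson intervals (counting error only) and the counts at the right. The dashed line is the 16.3% found over all 10743 such genes. Lists with no gene at a domain are not drawn. Of those drawn, the mesenchymal state list is highest, with 15 of 17 genes, and the pigment cell list is lowest, with 1 of 8.

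Genes of the mesenchymal, dedifferentiated state of melanoma were mostly at domains. The list was chosen with results of these data known. Of 10743 coding genes with an end at a shared region, 1752 were at a domain (16.3%). Of 17 mesenchymal genes with an end at a shared region, 15 were (88.2%, 65.7–96.7%). Axl, Cdh2, Fn1, Foxd3, Prrx1, Snai2, Sox2, Sox9, Tead1, Tead4, Twist1, Twist2, Vim, Zeb1 and Zeb2 had a domain, and Snai1 and Tgfbi did not. The median mutant over WT width ratio over their 16 domains was 1.22, with 13 longer in the mutant line, against 0.997 over all domains. These counts use the longest peak. By covered bases Prrx1, among the 13, was longer in the WT line, with 4811 bp in the mutant line and 4956 bp in the WT line. At Sox2 the longest peak measured 9728 bp in the mutant line and 2674 bp in the WT line, where 4 peaks covered 6005 bp. At Sox9, a neural crest factor gene, it measured 4982 bp in the mutant line and 1786 bp in the WT line, and each line had 1 peak.

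Vim, which encodes the intermediate filament vimentin, had 6991 bp in the mutant line and 4837 bp in the WT line. The transcription factor gene Zeb2 was among the 3 of the 16 that were longer in the WT line. Its domain at the gene end measured 2185 bp in the mutant line, where 4 peaks covered 4833 bp, and 6538 bp in the WT line, in 1 peak. A further Zeb2 domain, outside the 16, entered by a start inside, with 3496 bp in the mutant line and 4569 bp in the WT line. Tead1, a YAP partner gene, had 3037 bp in the mutant line and 3753 bp in the WT line, and Snai2, a repressor gene of the epithelial program, had 3263 and 3293 bp. At Twist1, a mesenchymal bHLH factor gene, the peak measured 4643 bp in the mutant line and 3597 bp in the WT line. Fn1, the fibronectin gene, had 5116 bp in the mutant line and 4190 bp in the WT line. Runx1 entered by a start inside a domain, with 6617 bp in the mutant line and 6113 bp in the WT line.

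Of 8 pigment cell genes with an end at a shared region 1 was at a domain (12.5%, 2.24–47.1%), a share near the 16.3% of all such genes. It is Tfap2b, a paralogue of Tfap2a, with 5609 bp in the mutant line and 3508 bp in the WT line. Erbb3, Gpnmb, Mc1r, Mitf, Pax3, Pmel and Rab38 had a shared region under the threshold. Tfap2a, which encodes a regulator of melanocyte and neural crest genes, entered by a start inside a domain, with 7763 bp in the mutant line and 4021 bp in the WT line, where 3 peaks covered 7590 bp. Fibroblast markers had 2 of 4, Pdgfra (5330 bp in the mutant line and 5100 bp in the WT line) and Col3a1 (2829 and 3579 bp). No keratinocyte marker of 2, no endothelial marker of 1 and no blood cell marker of 0 was at a domain, and none of the 39 Hox genes had an end at a shared region.

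Signalling feedback genes had many domains. Of 17 MAPK output genes, which rise with ERK activity, 13 were at a domain (76.5%, 52.7–90.4%), with a median ratio of 1.08. Ccnd1, the cyclin D1 gene, had 8982 bp in the mutant line and 4611 bp in the WT line, where 2 peaks covered 7598 bp. Dusp6 had 7489 bp in the mutant line and 5117 bp in the WT line, and Dusp4, a related phosphatase gene, 7428 and 5895 bp. Myc, the growth regulator gene, had 6217 bp in the mutant line and 5876 bp in the WT line. Etv1, an ETS factor gene, was longer in the WT line, with 3758 bp in the mutant line in 2 peaks that covered 6557 bp and 6657 bp in the WT line. Spry2, a feedback inhibitor gene, had 4277 bp in each line. Etv4, Etv5, Kctd12 and Spry1 had a shared region but no domain.

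Of 14 TGF-beta and BMP feedback genes, 9 were at a domain (64.3%, 38.8–83.7%; median ratio 1.12). Among the inhibitory SMAD genes, Smad7 had 6166 bp in the mutant line and 7553 bp in the WT line and Smad6 had 2820 and 4774 bp. Smad3, which encodes a signal transducer, had 4682 bp in the mutant line and 4164 bp in the WT line. Ski, Bambi, Id1, Id3 and Smurf2 were the others besides Tgif1. Of 13 YAP targets and partners, 8 were at a domain (61.5%, 35.5–82.3%; median ratio 1.02 over 9 domains). Ccn1, a matricellular protein gene, had 5759 bp in the mutant line and 6454 bp in the WT line, and Wwtr1, the TAZ gene, had 5397 and 5268 bp. Axl, Tead1 and Tead4 count in this list and in the mesenchymal list.

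Among transcription factor families, 9 of 14 KLF and SP genes were at a domain (64.3%, 38.8–83.7%; median ratio 1.11). Their widths in the mutant line ran from 3130 bp at Klf10 to 5144 bp at Klf6, and in the WT line from 2048 bp at Sp3 to 4615 bp at Klf6. Of 13 AP-1 genes, 7 were at a domain (53.8%, 29.1–76.8%), with a median ratio of 0.874. They moved in both directions. Maf had 2477 bp in the mutant line and 7346 bp in the WT line. Jun had 4084 bp in the mutant line, in 2 peaks that covered 5463 bp, and 5750 bp in the WT line. Atf3, a stress-induced factor gene, had 4510 bp in the mutant line and 1805 bp in the WT line, where 3 peaks covered 2373 bp. Fos had 3916 bp in the mutant line and 2069 bp in the WT line.

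Growth-control and housekeeping lists had lower shares. Of 15 p53 pathway and tumour suppressor genes, 6 were at a domain (40%, 19.8–64.3%), among them Trp53 (4999 bp in the mutant line and 2907 bp in the WT line) and the CDK inhibitor gene Cdkn1b with 2 domains. Ribosomal protein genes had 9 of 22 (40.9%, 23.3–61.3%), with widths from 2517 to 5566 bp in the mutant line and from 3044 to 4038 bp in the WT line. Glycolysis genes had 5 of 18 (27.8%, 12.5–50.9%), among them Pkm, a pyruvate kinase gene, with 6484 bp in the mutant line and 3925 bp in the WT line. Of the lists with a gene at a domain, the intervals of the glycolysis, COMPASS, SWI/SNF, fibroblast and pigment cell lists held the 16.3% of all genes. The lists were chosen with results of these data known and the domains by width, so the intervals test no list.

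The genes of the complexes profiled here were at domains in part. Of 15 COMPASS genes 4 were at a domain (26.7%, 10.9–52.0%). Setd1b, a methyltransferase gene, had 4980 bp in the mutant line and 6363 bp in the WT line, each line with 2 peaks, which covered 9247 and 8653 bp. Kmt2a had 3602 bp in the mutant line and 4586 bp in the WT line, Kdm6a, which encodes UTX, had 3866 and 4044 bp, and Hcfc1 had 3480 and 1773 bp. Men1, the Menin gene, had a shared region but no domain. Kmt2d itself had a domain over an annotated start (chr15:98867497-98872937), with 5441 bp in the mutant line and 4426 bp in the WT line, where 2 peaks covered 4673 bp. It carried Menin in both lines and TFAP2A in the mutant line and no KMT2D peak in the WT line. Of 24 SWI/SNF genes 6 were at a domain (25%, 12.0–44.9%), which are Arid1b, Arid2, Dpf2, Dpf3, Smarca2 and Smarcc2, and Arid1a entered by a start inside a domain.

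Grouping genes by the letters of their symbols gave a wider view that used no list. Among 168 symbol prefixes with at least 8 genes at shared regions, Klf was highest with 8 of 13 genes at a domain, followed by Arid with 6 of 10. Srsf, genes of splicing factors, had 5 of 10 and Sox had 4 of 8. The ribosomal protein prefixes differed, with 19 of 46 for Rpl (41.3%) and 9 of 39 for Rps (23.1%). The share over all 10743 genes with an end at a shared region was 16.3%. At 24 prefixes no gene was at a domain, among them Psmd (proteasome regulator subunits, 14 genes), Ndufa (respiratory complex subunits, 13 genes) and Atg (autophagy, 16 genes). At a share of 16.3%, a prefix of few genes can have none by its size alone. The prefixes were ranked on the same domains, so the order is a description.

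Among the other targets, Menin was on nearly all domains. A Menin peak lay on 1548 domains in the mutant line (95.1%, 94.0–96.1%) and on 1466 in the WT line (90.1%, 88.6–91.5%). The shares were 69.6% and 58.1% in other shared regions and 72.9% and 62.2% in all shared regions. Menin was in both lines on 88.4% of domains (86.7–89.9%) and 53.5% of other regions, and in neither line on 3.13% and 25.8%. Menin peaks covered 53.3% of the bases of domains in the mutant line and 44.7% in the WT line, against 40.5% and 31.8% in other regions.

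TFAP2A, a transcription factor of the melanocyte lineage, lay on 1335 domains in the mutant line (82.1%, 80.1–83.8%) and 1084 in the WT line (66.6%, 64.3–68.9%), against 60.2% and 44.2% of all shared regions. TFAP2B, used in the mutant line, lay on 1011 domains (62.1%, 59.8–64.5%), against 38.9% of all shared regions, and 995 of these also had TFAP2A. ARID1A, the subunit that defines the canonical SWI/SNF complex, lay on 902 domains in the mutant line (55.4%) and 696 in the WT line (42.8%, 40.4–45.2%), against 36.6% and 26.8%. UTX lay on 487 domains in the mutant line (29.9%, 27.8–32.2%) and 609 in the WT line (37.4%, 35.1–39.8%), against 15.4% and 19.2%. KMT2D lay on 592 domains in the WT line (36.4%, 34.1–38.8%), against 17.7%. SOX10, with the antibody labelled U in the mutant line, lay on 276 domains (17.0%, 15.2–18.9%), against 7% of all shared regions. With the antibody labelled T in the same line it lay on 54 domains (3.32%, 2.55–4.31%), against 1.26% of other shared regions. SMARCC1 lay on 37 domains in the mutant line (2.27%) and 120 in the WT line (7.38%), against 1.13% and 4.43%.

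A wider region is hit more often, so the targets were also counted in a window of 500 bp each side of the H3K4me3 summit. Menin stayed more frequent on domains, with 86.0% (84.2–87.6%) against 66.9% of other regions in the mutant line and 77.0% (74.8–78.9%) against 53.9% in the WT line. Mutant TFAP2A was at 58.1% (55.7–60.5%) against 52.8%, while WT TFAP2A, at 34.2% (31.9–36.5%) against 35.1%, was within counting error. TFAP2B was at 36.1% (33.8–38.4%) against 31.6%. ARID1A, KMT2D and UTX were less frequent at the summit of domains than at that of other regions. Mutant ARID1A was at 21.5% (19.5–23.5%) of domains against 28.1%, WT ARID1A at 10.1% (8.71–11.6%) against 17.8%, and WT KMT2D at 8.42% (7.17–9.87%) against 10.4%. Mutant UTX was at 8.17% (6.94–9.61%) against 10.6% and WT UTX at 9.28% (7.97–10.8%) against 11.5%. SOX10 U, at 3.75% (2.93–4.79%) against 4.25%, was within counting error. SOX10 T was at 0.492% (0.249–0.967%) against 1.04%.

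**Figure D4:**
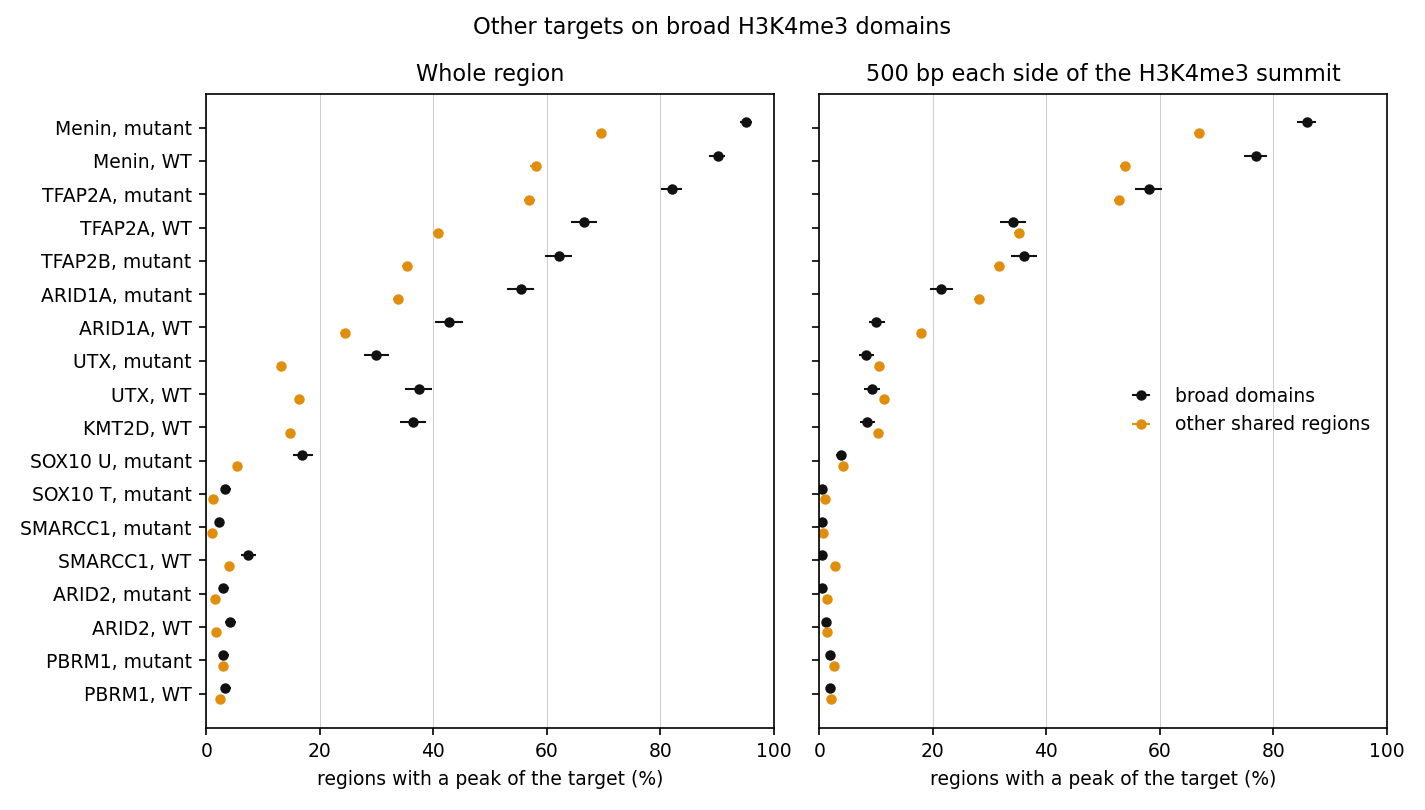
Share of regions with a peak of each target (horizontal axis, %) in the 1627 broad domains (black) and the 10914 other shared regions (orange), counted over the whole region at the left and within 500 bp each side of the H3K4me3 summit of the same line at the right. Bars are 95% Wilson intervals for counting error. Menin stays higher on domains in both panels, while ARID1A, UTX and KMT2D are higher over the whole domain and lower at the summit.

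The summit lay farther from the start in domains, and a fixed point at the start gave another reading. At the start, WT KMT2D covered 152 of 818 domains (18.6%, 16.1–21.4%) against 8.73% of other regions, and WT UTX covered 18.2% (15.7–21.0%) against 8.33% (7.63–9.10%). Mutant UTX covered 8.92% (7.16–11.1%) against 5.27%, and SOX10 U 4.16% (2.99–5.75%) against 1.45%. SOX10 T showed no such excess, with 1 of 818 domains (0.122%, 0.0216–0.689%) against 0.353%. Mutant ARID1A covered 24.2% (21.4–27.3%) against 21.8% (20.8–23.0%), whose intervals overlap. WT ARID1A covered 19.4% (16.9–22.3%) against 13.6% (12.7–14.5%). Mutant TFAP2A covered 59.0% (55.6–62.4%) against 44.5%, and WT TFAP2A, level at the summit, covered 42.7% (39.3–46.1%) against 31.6% (30.3–32.8%).

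Strength of H3K4me3 moved with width. The median fold enrichment of the strongest H3K4me3 peak, the authors' value, was 30.3 in domains and 19.5 in other regions in the mutant list, and 20.1 and 12.1 in the WT list. Among 802 other regions at least as strong as the median domain in both lines, which had median widths of 2074.5 bp in the mutant line and 2126.5 bp in the WT line, Menin in the mutant line lay on 95.1% (93.4–96.4%), the same share as in domains. WT Menin lay on 84.7% of them (82.0–87.0%), below the 90.1% of domains (88.6–91.5%). These shares rise with width. At single starts mutant Menin covered 66.4% of the strong regions (61.9–70.6%), above the 56.7% of domains (53.3–60.1%). WT Menin covered 52.5% of those starts (47.9–57.1%) against 49.5% in domains (46.1–52.9%), whose intervals overlap. WT KMT2D lay on 17.3% of these strong regions (14.9–20.1%) and covered 10.8% of their 455 single starts (8.24–14.0%), below the domains on both counts. SOX10 U lay on 4.86% of them (3.58–6.58%), also below. The part of depth in these shares was not tested.

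Targets varied with width among the domains themselves. Among the 407 domains of highest mean width over the lines, 3953 to 10987.5 bp, KMT2D lay on 46.9%, SOX10 U on 27.3% and mutant UTX on 37.8%. Among the 407 of lowest mean width, 1640 to 2969 bp, the shares were 31.4%, 13.0% and 26.0%. At the H3K4me3 summit the order was not kept, with WT KMT2D at 6.63% of the widest and 9.83% of the narrowest set. Gene ends lay at 78.6% of the widest set and 87.0% of the narrowest.

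Domains with and without KMT2D differed in their other targets and little in width ratio. The median mutant over WT width ratio was 0.993 (0.972–1.01) in the 592 domains with KMT2D in the WT line and 0.998 (0.979–1.01) in the 1035 without it. UTX lay on 61.7% of the domains with KMT2D in the mutant line (57.7–65.5%) and 86.0% in the WT line (83.0–88.5%), against 11.8% and 9.66% of those without. ARID1A in the mutant line lay on 86.3% with and 37.8% without KMT2D, and SOX10 U on 30.2% (26.7–34.1%) and 9.37% (7.74–11.3%). Menin was about as frequent in both sets, on 565 of 592 and 983 of 1035 in the mutant line. Other shared regions were divided in the same way for UTX, with WT UTX on 83.0% of those with and 4.81% of those without KMT2D. Menin differed there, on 86.8% with and 66.6% without KMT2D in the mutant line and on 81.3% and 54.0% in the WT line. KMT2D, UTX and ARID1A lay together in the WT line on 25.7% of domains (23.6–27.9%) and 10.2% of other regions (9.64–10.8%).

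Targets called in 1 line only were unevenly spread over the lines. Menin was in the mutant line only on 110 domains (6.76%, 5.64–8.09%), against 14.9% of all shared regions, and in the WT line only on 28 (1.72%), against 4.21%. TFAP2A was in the mutant line only on 275 (16.9%, 15.2–18.8%), against 18.1%, and in the WT line only on 24 (1.48%), against 2.11%. ARID1A was in the mutant line only on 287 (17.6%, 15.9–19.6%), against 13.8%, and in the WT line only on 81 (4.98%), against 4%. UTX went the other way, in the mutant line only on 6.33%, against 4.04%, and in the WT line only on 225 (13.8%, 12.2–15.6%), against 7.79%. SMARCC1 was in the mutant line only on 18 (1.11%), against 0.542%, and in the WT line only on 6.21%, against 3.84%. The mutant lists were called at higher depth for Menin, TFAP2A, ARID1A and UTX and at lower depth for SMARCC1, and the part of depth in these counts was not tested.

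Menin coverage moved with the width of the mark from line to line. Both were read from peaks called at different depths. In the 223 domains at least 1.5 times as long in the mutant line, Menin covered 51.3% of bases in the mutant line and 31.8% in the WT line, and where both lines had Menin the median ratio of covered bases was 1.45. In the 147 domains at least 1.5 times as long in the WT line, Menin covered 43.0% of bases in the mutant line and 51.3% in the WT line, with a median ratio of 0.877. In the 1257 domains between, Menin covered 55.0% of bases in the mutant line and 46.4% in the WT line, with a median ratio of 1.15. For TFAP2A the ratios in the same 3 sets were 1.40, 1.07 and 1.17, and for ARID1A 1.17, 1.08 and 1.125. Both followed the same order as Menin, though neither fell below 1 where the WT mark was the longer. UTX had ratios of 0.740, 0.591 and 0.702.

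The 8 highest mutant over WT width ratios lay at genes with a short peak in the WT line. Rasgrf1, a RAS exchange factor gene, had 3066 bp in the mutant line and 214 bp in the WT line. Isl1, a LIM homeodomain factor gene, had 3132 bp in the mutant line and 354 bp in the WT line. At 0610010K14Rik and Bcl6b the longest peak measured 7489 bp in the mutant line and 720 bp in the WT line, where 2 peaks covered 1274 bp. Domains inside Smad7 (3683 and 302 bp), Mast4 (3395 and 470 bp) and Sox5 (4677 and 1017 bp) and at Cnnm4 (3260 and 588 bp) and Tmem178b (3048 and 650 bp) completed them, with the mutant width before the WT width. Menin lay in the mutant line on 7 of the 8, all but Tmem178b, and KMT2D in the WT line on Cnnm4 alone. Over all domains mutant Menin lay on 95.1% and WT KMT2D on 36.4%.

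The 8 lowest ratios included genes of adhesion and of the cytoskeleton. Vcam1, a cell adhesion receptor gene, had 440 bp in the mutant line and 3371 bp in the WT line. Flnc, which encodes an actin-crosslinking filamin, had 702 bp in the mutant line and 3375 bp in the WT line. Arhgef17, a guanine nucleotide exchange factor gene, had 2352 bp in the mutant line and 8529 bp in the WT line, with KMT2D, UTX, TFAP2A and Menin called in the WT line and no other target in the mutant line. Inside Cyth3, an exchange factor gene for ARF proteins, the longest peak measured 493 bp in the mutant line and 4710 bp in the WT line. Cflar, Ppp1r12b, Tafa1 and Rere were the other genes of the 8 lowest ratios, with 629 to 1210 bp in the mutant line and 3103 to 4226 bp in the WT line.

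Maps of 4 starts show how the targets were laid out within a domain. At Hmga2 the H3K4me3 peak ran from -1993 to 7387 bp of the start in the mutant line and from -2062 to 6476 bp in the WT line. Menin had 4 peaks in the mutant line and 3 in the WT line along it, and the peaks of the other targets lay between -946 and 174 bp, KMT2D from -829 to 174 bp. At Sox2 the mutant line had 1 H3K4me3 peak from -2063 to 7664 bp, with 5 Menin peaks along it and TFAP2A, TFAP2B, UTX and SOX10 U peaks over the start. The WT line had 4 H3K4me3 peaks and 5 Menin peaks over much the same stretch and none of the other targets. At Dusp6 no KMT2D peak was called in the WT line, UTX was called in both lines and SOX10 U lay over the start in the mutant line. TFAP2A lay upstream there, from -1724 to -1109 bp in the mutant line and from -1646 to -1109 bp in the WT line. At Foxd3 the mutant mark began at -5150 bp and the WT mark at -743 bp, and Menin began at -4998 bp in the mutant line and -785 bp in the WT line.

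**Figure D5:**
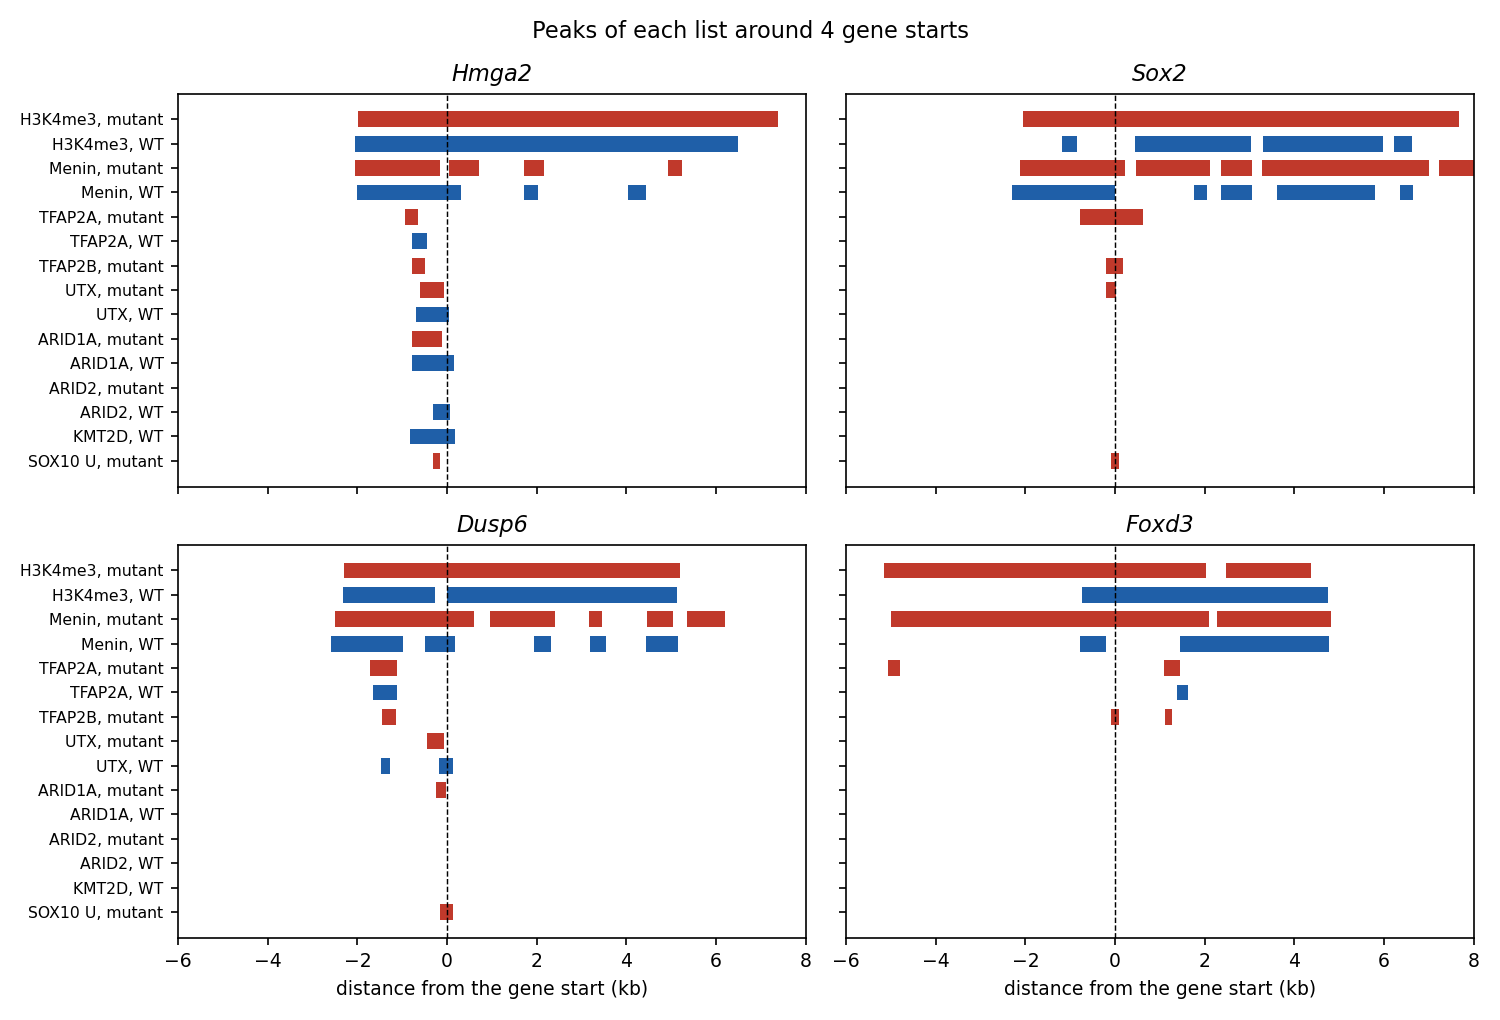
Peaks of 15 lists around the starts of Hmga2, Sox2, Dusp6 and Foxd3 (horizontal axis, distance from the start in kb, downstream positive; each row is a list, red for the mutant line and blue for the WT line). Bars span each deposited peak, and the axis ends at 8 kb, where the last mutant Menin peak at Sox2 runs on. Menin peaks lie along the H3K4me3 bars with gaps between them, and at Hmga2 they end before the mark in both lines. At Hmga2 and Sox2 the other targets lie within 1 kb of the start, and at Foxd3 a mutant TFAP2A peak lies at the upstream edge, from -5055 bp.

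Few domains stood at either extreme of target number. A domain was called in a median of 8 of the 22 lists, H3K4me3 included, against 5 for other regions. A wider region is hit by more lists by construction, and the median span was 3712 bp in domains and 1593 bp in other regions. This holds for each count of lists given here. No target but H3K4me3 was called on 15 domains (0.922%, 0.560–1.52%), against 13.8% of other regions and 12.1% of all shared regions. The 5 widest of these lay at Rps15a, a ribosomal protein gene (5035 bp in the mutant line and 5450 bp in the WT line), Epha2, an ephrin receptor gene (3398 and 5504 bp), Nptx1, Phf21b, and Cd63 with Rdh5. At least 15 lists were called on 34 domains (2.09%), against 0.559% of other regions and 0.758% of all shared regions. Ankhd1 and Anxa2, which encodes the membrane-binding protein annexin A2, had the most, with 18 lists each, followed by Ppm1b with 17. The next 8 had 16 lists each, at Lims1, Cand1, Myh9, Ehbp1l1 with Fam89b and Znrd2, and Rras with Scaf1, inside Tnrc18 and Nav2, and in the stretch of chromosome 8 named above. The IgG signal at regions called in many lists was not analysed here.

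Other domains are named here after their values were seen. The long noncoding RNA genes Malat1 (6143 bp in the mutant line and 6618 bp in the WT line) and Neat1 (5644 and 5637 bp) had domains of nearly equal width. Runx2, Ets1 and Nr2f2, which encode lineage transcription factors, had 4975, 6493 and 6837 bp in the mutant line and 4587, 6196 and 7092 bp in the WT line. A further domain at Nr2f2 had 4012 bp in the mutant line and 3236 bp in the WT line. Tcf4, a bHLH factor gene, had 1 domain longer in the mutant line (6431 and 3806 bp) and 1 longer in the WT line (4620 and 5985 bp). Over all domains, 59 lay in 31 pairs at most 10 kb apart.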

How the data were processed

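Peak lists of 22 libraries were read as deposited. Per the submitters' processing notes, reads were handled with FastQC, MultiQC, Bowtie2 and MACS2 on mm10; no source used here gives versions, settings or the control. Each deposited peak carries a score, the authors' fold enrichment (a ratio), −log10 p and −log10 q, and a summit offset. Library sizes are not in the lists, so depth was rebuilt from fold and −log10 p at up to 400 summits per list.

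A line's width is its longest H3K4me3 peak touching the domain, which can reach beyond it; covered bases are counted inside. Other shared regions are H3K4me3 peaks of both lines merged in the same way that touch no domain. Genes were 21900 protein-coding genes of RefSeq GRCm38.p6, taken at a domain if an end lay within 1 kb. Starts came from 21263 RefSeq promoters of 17492 genes, which cover no starts on chromosome 18, and hairpins from 1005 RefSeq entries. Targets were counted at an overlap of 1 bp.

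Named were the 15 widest domains, the 8 highest and 8 lowest width ratios, the 8 with most lists, 5 with no other target, 3 on each side of the threshold, and the genes of 17 lists. Members, lists and rules were chosen with earlier results of these data known. Starts inside domains, microRNA windows, symbol prefixes, strong other regions and the counts at gene starts were added after values were seen.

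Domain building and overlap counts were tested on simulated data: all 1000 simulated domains among 2000 regions were rebuilt with both widths right, and 300 of 300 overlaps and covered lengths matched a base-by-base count. Alternatives changed the peak threshold, the width, the overlap, the lines required, the joining of peaks, regions called in many lists, the gene window and the place where targets were counted. The scripts ran under Python 3.11.15 with Matplotlib 3.10.9, SciPy 1.17.1, NumPy 2.4.6 and pandas 2.3.3.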

Additional observations from a re-analysis of the deposited data

How the results depend on the processing

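Over 8 results, 31 values recomputed under the settings listed at the outset stayed within the counting interval of the reported value (for the number of domains, within 1.5 times) and 23 did not. Of those added after seeing the data, 6 stayed and 1 did not. Requiring a larger overlap of the broad peak, joining peaks within 500 bp and leaving out domains called in at least 15 lists moved none of the 8. The number of domains fell to 584 at a width of 4000 bp and to 825 when both lines had to reach 3000 bp. The median width ratio was 1.01 at 4000 bp, the gene-end share 79.5% at 4000 bp, 86.7% with a window of 2500 bp and 73.5% with a start inside. With only peaks of −log10 q of at least 5, shares were 86.6% for mutant Menin, 74.1% for mutant TFAP2A, 21.3% for mutant UTX, 31.8% for WT KMT2D and 42.4% for mutant ARID1A. At 4000 bp they were 85.6% for TFAP2A, 36.6% for UTX, 43.2% for KMT2D and 59.9% for ARID1A. With both lines broad they were 96.7% for Menin, 85.1% for TFAP2A, 32.7% for UTX and 39.5% for KMT2D. Within 500 bp of the summit they were 86.0% for Menin, 58.1% for TFAP2A, 8.17% for UTX, 8.42% for KMT2D and 21.5% for ARID1A, which follows from the smaller window. The causes of the other moves were not tested. No paired analysis was possible because each line and target had 1 library and no result came from a test. Depth limits every absence of a peak.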
